A study of Homo sapiens with 12 samples.

Results

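The subject is the exchange of BAF subunits between neural progenitors and neurons, followed through 10 genes of the 58302 counted in human H1 cells. The genes were taken by name and Ensembl identifier, not by their values, though earlier results of these data were known. They are 4 progenitor subunits (ACTL6A, PHF10, DPF2, SS18), 4 neuronal subunits (ACTL6B, DPF1, DPF3, SS18L1) and the ATPases SMARCA4 and SMARCA2. RNA was sequenced from 12 samples in 6 groups of 2. H1 is a line of human embryonic stem cells. WT NPCs and dKO NPCs are neural progenitors grown as spheres with bFGF and EGF. WT-D28 and dKO-D28 cells are such progenitors after 28 days of spontaneous differentiation in N2B27 with GDNF, BDNF and cAMP, and WT NPC-P4 and dKO NPC-P4 are progenitors at passage 4. The labels give no passage for the other NPCs, which the study describes as passage 2. All dKO samples have the genotype UTX and JMJD3 knockout, in which the catalytic part of both histone demethylases (genes KDM6A and KDM6B) was deleted in H1 cells, and they come from a single edited line. The comparisons ask how the subunits change on differentiation and passage in each genotype, and how the genotypes differ.

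BAF is an ATP-dependent complex that moves and ejects nucleosomes. It is assembled from families of related subunits, of which a cell uses alternative members. When neural progenitors leave the cell cycle, the actin-related ACTL6A (BAF53A) is replaced by ACTL6B (BAF53B), the PHD-finger subunits PHF10 (BAF45A) and DPF2 (BAF45D) give way to DPF1 (BAF45B) and DPF3 (BAF45C), and SS18 to SS18L1 (CREST). SMARCA4 (BRG1) and SMARCA2 (BRM) are the alternative motors.

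Total counts ranged from 756942 to 1438807 in the 4 WT and dKO NPC samples and from 3174410 to 10601172 in the other 8, so that 3 counts correspond to 3.92 CPM in the shallowest sample and 0.302 CPM in the deepest. CPM are counts scaled to 1000000 over the tested genes with TMM library sizes. The 2 dKO-D28 samples differed most from each other, with a chi-square of 11.3 per degree of freedom over genes, against 1.57 to 2.72 in the other groups. Nothing states that the 2 samples of a group were separate cultures, so p-values measure only the spread between such samples. The edgeR fit pools this spread over the 6 groups, so the error of a comparison is not that of its own samples alone. No label gives a batch, so batch and group cannot be told apart. The targeted KDM6A was at 61.4 and 54.4 CPM in WT NPCs, 44.3 and 49.0 in WT-D28 cells, 50.4 and 53.9 in WT NPC-P4, 39.8 and 38.9 in dKO NPCs, 59.4 and 32.4 in dKO-D28 cells and 31.9 and 27.7 in dKO NPC-P4. KDM6B was at 157 and 184 CPM in WT NPCs, 205 and 189 in WT-D28 cells, 117 and 127 in WT NPC-P4, 155 and 159 in dKO NPCs, 146 and 152 in dKO-D28 cells and 188 and 184 in dKO NPC-P4. At passage 4 KDM6A was called lower in dKO (log2 -0.81, edgeR adjusted p = 0.00691) and KDM6B higher (1.52-fold, log2 0.61, edgeR adjusted p = 2.2e-04), and at day 28 KDM6B was called lower (log2 -0.40, edgeR adjusted p = 0.00387). The KDM6A call was lost without WT NPC-P4 replicate 2 or dKO NPC-P4 replicate 2, and the day 28 call of KDM6B without WT-D28 replicate 1. These counts span each whole gene and do not check the removal of its catalytic exons.

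The identity of each group was read from fixed markers. The 7 neural progenitor markers summed to 6194 to 6320 CPM for WT NPCs and 6925 to 7378 CPM for dKO NPCs. At passage 4 their sum was 7437 to 7520 CPM for WT and 5276 to 5317 CPM for dKO. FABP7 made up 1884 and 1720 CPM of this WT sum, against 87.13 and 79.21 CPM in dKO NPC-P4 and 129.2 and 111.1 CPM in WT NPCs. NES was at 712.9 and 775.4 CPM in WT NPC-P4, against 1399 and 1431 CPM in WT NPCs. SOX1 and PAX6 were also lower there than in WT NPCs, SOX2 and VIM were higher, and HES5 had at most 2 counts. The day 28 sums were lowest, at 4465 to 4517 CPM for WT and 3274 to 4144 CPM for dKO. Within this list SOX2 was at 411.7 and 409.2 CPM for WT-D28. PAX6 was at 11.88 and 11.67 CPM for WT-D28, against 189.6 and 356.1 CPM for dKO-D28. SOX2, NES, SOX1 and FABP7 went the other way and were lower in both dKO-D28 samples. NES was at 922 and 942.3 CPM for WT-D28 and 620.3 and 617.6 CPM for dKO-D28. VIM and HES5 overlapped between these groups. The pluripotency genes POU5F1 and NANOG were listed at 0 counts in all 12 samples, as was the BAF core subunit SMARCB1, which cells generally use, so these zeros are not read as absence. The 8 neuron markers summed to 3572 CPM in WT-D28 cells and to 4258 to 4834 CPM in WT NPC-P4, but to 1180 to 1350 CPM in WT NPCs and 621 to 1098 CPM in the 6 dKO samples. Among the neuron markers TUBB3 did not follow the sum, at 51.0 and 55.0 CPM in WT-D28 cells and 56.1 and 42.5 CPM in WT NPCs, and RBFOX3 was at most 8.0 CPM. The 6 proliferation markers summed to 384 to 396 CPM in WT-D28 cells and to 1055 to 1820 CPM in the others. WT NPC-P4, labelled as progenitors, thus held high neuron markers with proliferation markers at 1448 to 1636 CPM. The 5 astrocyte markers summed there to 1835 to 1992 CPM, of which SLC1A3, a gene also of radial glia, made up 1781 and 1946 CPM. GFAP was at 21.7 and 23.6 CPM in WT NPC-P4, S100B at 27.4 and 16.7, AQP4 at 4.68 and 5.14, and ALDH1L1 at 0.668 and 0.771. The sum of the 5 mesenchymal markers was highest in dKO NPC-P4, at 1689 to 1698 CPM, through COL1A2 (807 and 803 CPM) and COL3A1 (357 and 353 CPM), whereas COL1A1 and LUM were higher in dKO NPCs and DCN in WT NPC-P4. These are bulk samples, in which fewer cells of a type and less RNA per cell cannot be told apart, and the part of cell composition in the results that follow was not tested.

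Promoters are shown for the 4 genes that were higher in both WT-D28 cells and WT NPC-P4 than in WT NPCs, 3 neuronal subunits and SMARCA2. Each is the 250 bases before a start in RefSeq (GRCh38.p14), 5′ to 3′ on the strand of the gene, and capitals mark CCAAT on either strand and CAGCTG. The windows are chr7:100656449-100656698 (minus strand) for ACTL6B, chr19:38229696-38229945 (minus) for DPF1, chr20:62143519-62143768 (plus) for SS18L1 and chr9:2015097-2015346 (plus) for the first of 4 listed starts of SMARCA2.
ACTL6B: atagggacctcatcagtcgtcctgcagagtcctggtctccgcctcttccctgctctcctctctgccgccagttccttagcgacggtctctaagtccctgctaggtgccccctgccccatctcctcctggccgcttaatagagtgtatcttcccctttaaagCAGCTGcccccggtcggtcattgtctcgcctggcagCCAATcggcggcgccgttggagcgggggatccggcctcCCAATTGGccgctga
DPF1: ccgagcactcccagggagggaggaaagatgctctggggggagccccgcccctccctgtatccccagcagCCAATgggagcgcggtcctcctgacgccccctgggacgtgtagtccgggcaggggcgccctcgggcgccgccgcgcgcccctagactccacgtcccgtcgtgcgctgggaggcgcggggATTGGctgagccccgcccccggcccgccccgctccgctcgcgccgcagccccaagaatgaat
SS18L1: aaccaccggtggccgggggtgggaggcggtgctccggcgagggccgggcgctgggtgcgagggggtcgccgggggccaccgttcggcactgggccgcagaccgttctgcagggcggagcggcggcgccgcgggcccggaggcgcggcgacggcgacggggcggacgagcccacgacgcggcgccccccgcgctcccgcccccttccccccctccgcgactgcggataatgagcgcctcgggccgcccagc
SMARCA2: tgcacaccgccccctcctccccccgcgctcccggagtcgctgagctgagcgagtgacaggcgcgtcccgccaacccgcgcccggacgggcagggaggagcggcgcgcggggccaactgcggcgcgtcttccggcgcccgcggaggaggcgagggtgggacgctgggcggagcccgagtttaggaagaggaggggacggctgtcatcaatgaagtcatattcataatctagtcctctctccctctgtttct
The ACTL6B window held 3 CCAAT matches, 1 CAGCTG and 16 CpG, and the DPF1 window 2 CCAAT matches and 28 CpG. Neither motif was found in the windows of SS18L1, with 42 CpG, and SMARCA2, with 29 CpG. Of 35116 promoters of the same length, 32% held CCAAT and 14% held CAGCTG, and the median was 11 CpG. A CCAAT that overlaps its reverse complement is counted on each strand. A match is a description of the letters and not of a bound site. Entries were matched for 9 of the 10 genes, with ACTL6A unmatched.

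Positions below are hg38 with the GENCODE v44 annotation. ACTL6B (ENSG00000077080, chr7:100643097-100656448, minus strand), an actin-related subunit found in neurons, had the largest fold in any comparison among the 9 tested genes. In CPM it was at 9.14 and 8.95 in WT NPCs, 66.4 and 66.0 in WT-D28 cells, 56.8 and 48.5 in WT NPC-P4, 6.01 and 3.54 in dKO NPCs, 5.33 and 1.35 in dKO-D28 cells and 6.56 and 5.40 in dKO NPC-P4. The 4 WT-D28 and WT NPC-P4 samples were all above the other 8, and the 6 dKO samples were all below the WT NPCs. ACTL6B rose 7.32-fold from WT NPCs to WT-D28 cells (log2 2.87, SE 0.35, edgeR adjusted p = 9.21e-06). It was 20.8-fold lower in dKO-D28 than in WT-D28 cells (log2 -4.38, SE 0.30, edgeR adjusted p = 9.64e-09), a fold that rests on 22 and 7 counts in the dKO-D28 samples, with log2 -5.59 without dKO-D28 replicate 1 and -3.63 without replicate 2.

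**Figure D1:**
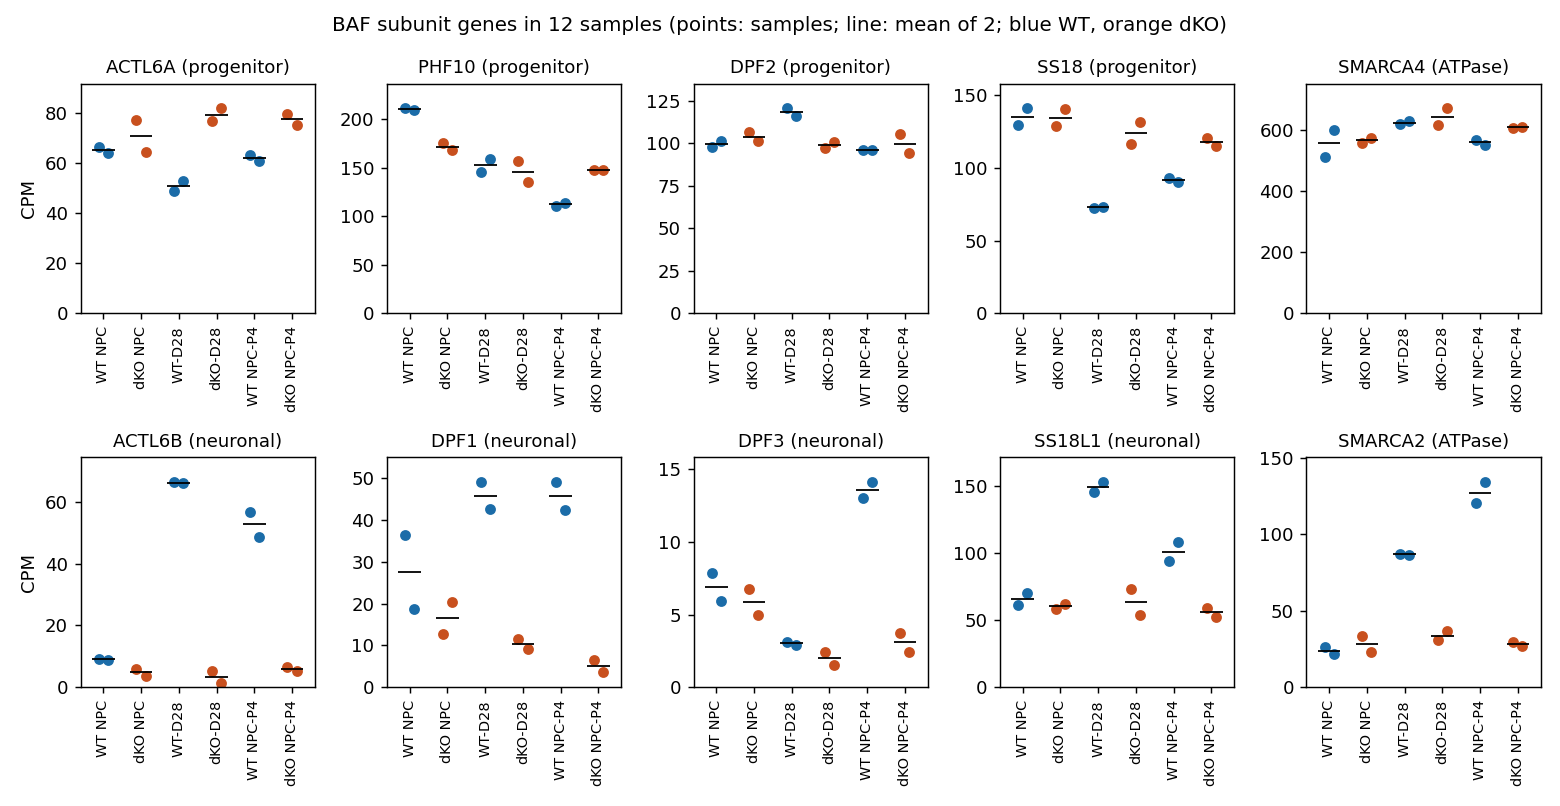
CPM (vertical axes, from 0) of the 10 genes in the 6 groups (horizontal axes), with a point for each of the 2 samples, a line at their mean, blue for WT and orange for dKO. ACTL6B, SS18L1 and SMARCA2 are high in the WT-D28 and WT NPC-P4 samples, whereas SMARCA4 stays between 510 and 670 CPM in all 12 samples.

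ACTL6A (ENSG00000136518, chr3:179562886-179588407, plus strand), the actin-related subunit of proliferating cells, moved far less. It was at 66.6 and 64.1 CPM in WT NPCs, 48.7 and 52.8 in WT-D28 cells, 63.1 and 60.6 in WT NPC-P4, 77.3 and 64.4 in dKO NPCs, 76.6 and 81.8 in dKO-D28 cells and 79.6 and 75.3 in dKO NPC-P4. The WT-D28 samples were the lowest of the 12, but the difference from WT NPCs missed the threshold (log2 -0.36, SE 0.15, edgeR adjusted p = 0.054). Its level was 1.56-fold higher in dKO-D28 than in WT-D28 cells (log2 0.64, SE 0.12, edgeR adjusted p = 2.48e-04). Of its 3668 exonic bases, 5.97% overlap genes of the other strand, MRPL47 among them, and reads there may not be told apart. Per exonic base, ACTL6B made up 17.5% and 17.7% of the ACTL6A and ACTL6B counts in WT NPCs, 67.8% and 65.9% in WT-D28 cells, 58.1% and 55.3% in WT NPC-P4 and 2.49% to 11.3% in the 6 dKO samples. ACTL6B therefore exceeded ACTL6A per exonic base in the 4 WT-D28 and WT NPC-P4 samples, an order that held for WT-D28 cells with the canonical transcript length (61.3% on average) but not for WT NPC-P4 replicate 2 (49.4%). PCR copies of 1 molecule were not separated by identifiers, and floors and intervals of shares cover counting error only.

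SS18L1 (ENSG00000184402, chr20:62143769-62182514, plus strand), a calcium-responsive coactivator, and SS18 (ENSG00000141380, chr18:26016253-26091217, minus strand), its paralog in proliferating cells, moved in opposite directions in WT cells. SS18L1 was at 61.4 and 70.1 CPM in WT NPCs, 145 and 153 in WT-D28 cells, 93.9 and 108 in WT NPC-P4, 58.6 and 62.2 in dKO NPCs, 73.0 and 53.7 in dKO-D28 cells and 59.0 and 52.2 in dKO NPC-P4. SS18 was at 129 and 141 CPM in WT NPCs, 72.4 and 73.4 in WT-D28 cells, 93.2 and 90.4 in WT NPC-P4, and between 115 and 141 in the 6 dKO samples. The WT-D28 and WT NPC-P4 samples were the highest for SS18L1 and the lowest for SS18, without overlap with the other 8. From WT NPCs to WT-D28 cells SS18L1 rose 2.24-fold (log2 1.16, SE 0.16, edgeR adjusted p = 2.93e-05) and SS18 fell by 0.90 on the log2 scale (SE 0.12, edgeR adjusted p = 1.81e-05). SS18L1 made up 36.2% and 37.2% of the SS18 and SS18L1 counts per exonic base in WT NPCs, 70.5% and 71.3% in WT-D28 cells, 54.6% and 58.7% in WT NPC-P4, and 32.7% to 42.8% in the dKO samples. With the canonical transcript length its share was 42.96% and 47.16% in WT NPC-P4, so SS18L1 did not exceed SS18 there. By that length SS18L1 remained the larger part in WT-D28 cells, at 59.99% and 60.86%.

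**Figure D2:**
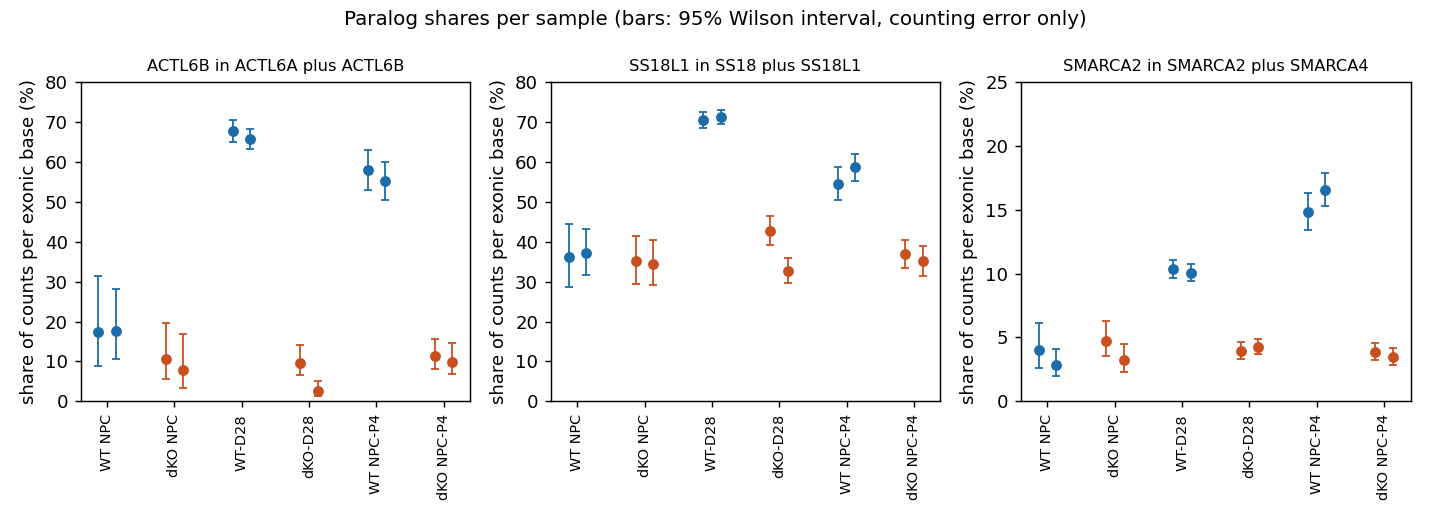
Share (percent of counts per exonic base, vertical axes) of ACTL6B, SS18L1 and SMARCA2 within their pairs in each sample, by group, with 95% Wilson intervals that cover counting error only. ACTL6B reaches 67.8% and SS18L1 71.3% in WT-D28 cells, and SMARCA2 reaches 16.6% in WT NPC-P4, on an axis that ends at 25%.

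Among the PHD-finger subunits, which bind histone tails, PHF10 (ENSG00000130024, chr6:169703902-169725566, minus strand) fell and DPF1 (ENSG00000011332, chr19:38211006-38229714, minus strand) rose in WT differentiation, while DPF2 (ENSG00000133884, chr11:65333843-65354262, plus strand) did not pass. PHF10 was at 211.5 and 210.2 CPM in WT NPCs, 145.7 and 159.5 in WT-D28 cells, 111 and 114 in WT NPC-P4, 176 and 168 in dKO NPCs, 157 and 135 in dKO-D28 cells and 148 and 148 in dKO NPC-P4. It fell by 0.47 on the log2 scale in WT-D28 cells (SE 0.11, edgeR adjusted p = 0.00295), and 10.5% of its exonic bases overlap other genes. DPF2 ranged from 94.2 to 120.5 CPM over the 12 samples, highest in the 2 WT-D28 samples. The difference of DPF2 between WT-D28 cells and WT NPCs was 0.24 on the log2 scale, with a 95% interval of -0.01 to 0.50 (edgeR adjusted p = 0.11).

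DPF1 was at 36.6 and 18.6 CPM in WT NPCs, 49.1 and 42.7 in WT-D28 cells, 49.1 and 42.4 in WT NPC-P4, 12.8 and 20.5 in dKO NPCs, 11.6 and 9.26 in dKO-D28 cells and 6.56 and 3.68 in dKO NPC-P4. It was higher in every WT-D28 and WT NPC-P4 sample than in the other 8. The rise from WT NPCs to WT-D28 cells (log2 0.83, SE 0.28, edgeR adjusted p = 0.024) was no longer called without WT NPC replicate 2 (log2 0.33, edgeR adjusted p = 0.49), where 28 counts remained for WT NPCs, nor with the correction for GC content and gene length (log2 0.63), without WT-D28 replicate 1 (log2 0.72) or in DESeq2 (adjusted p = 0.054). It held in 14 of 19 alternative fits. DPF3 (ENSG00000205683, chr14:72609034-72894101, minus strand) had a mean of 18.6 counts, under the minimum of 20, and its tests come from a fit of all genes with at least 1 count, in which the spread is almost wholly shared among genes. DPF3 was at 7.83 and 5.96 CPM in WT NPCs, 3.12 and 2.92 in WT-D28 cells, 13.0 and 14.1 in WT NPC-P4, 6.76 and 4.95 in dKO NPCs, 2.42 and 1.54 in dKO-D28 cells and 3.75 and 2.45 in dKO NPC-P4. In WT differentiation it lay apart from the other neuronal subunits, lower in both WT-D28 samples than in both WT NPC samples. This difference did not pass (log2 -1.04, SE 0.52, edgeR adjusted p = 0.16) and rests on 6 and 8 counts in the WT NPC samples. From WT NPCs to WT NPC-P4 the fitted difference of DPF3 was upward, like theirs, and did not pass (log2 1.09, SE 0.46, edgeR adjusted p = 0.0945). DPF3 was 4.43-fold lower in dKO NPC-P4 than in WT NPC-P4 (log2 -2.15, SE 0.39, edgeR adjusted p = 5.14e-07).

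SMARCA2 (ENSG00000080503, chr9:1980290-2193624, plus strand) rose in WT cells, and no difference was detected for SMARCA4 (ENSG00000127616, chr19:10960932-11079426, plus strand). SMARCA2 was at 26.1 and 21.6 CPM in WT NPCs, 87.4 and 86.2 in WT-D28 cells, 120 and 134 in WT NPC-P4, 33.8 and 23.3 in dKO NPCs, 30.8 and 36.5 in dKO-D28 cells and 29.8 and 26.7 in dKO NPC-P4. The 4 high samples did not overlap the other 8. SMARCA2 rose 3.71-fold in WT-D28 cells (log2 1.89, SE 0.20, edgeR adjusted p = 1.33e-06). SMARCA4 was at 510 and 600 CPM in WT NPCs and 617 and 629 in WT-D28 cells, a log2 difference of 0.16 with a 95% interval of -0.05 to 0.38. SMARCA4 stayed the more abundant ATPase per exonic base in every sample, SMARCA2 taking 4.01% and 2.86% of the 2 in WT NPCs, 10.4% and 10.1% in WT-D28 cells, 14.8% and 16.6% in WT NPC-P4 and 3.22% to 4.73% in the dKO samples.

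Counted together, 6 of the 9 tested genes passed between WT NPCs and WT-D28 cells, at a background of 46.2% of all 13454 genes tested: ACTL6B, DPF1, SS18L1 and SMARCA2 rose and PHF10 and SS18 fell. The median log2 fold change was 1.16 over the 3 tested neuronal subunits and -0.41 over the 4 progenitor subunits, against 0.04 over all genes. DPF3, left out of the median, was at log2 -1.04 (SE 0.52) in its separate fit and did not pass.

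Under the rule in the study's methods, an unadjusted p below 0.05 and a fold above 2, the 9 genes gave 3 in WT differentiation, at a background of 24.4%, 0 in dKO differentiation (7.14%), 4 in dKO-D28 against WT-D28 (24.2%), 0 in dKO against WT NPCs (4.42%) and 3 in dKO NPC-P4 against WT NPC-P4 (22.3%). It gave 2 for WT NPC-P4 against WT NPC (19.8%), 1 for dKO NPC-P4 against dKO NPC (9.83%), 4 for the difference between genotypes on differentiation (23.2%) and 3 for that on passage (19.3%). With 9 genes, nothing particular to these subunits is read from the counts under either rule.

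In dKO cells over the same 28 days, none of the 9 genes passed (edgeR), at a background of 9.55%. None had an unadjusted p under 0.05, and DESeq2 gave 0 as well. The fitted log2 differences were -0.58 for ACTL6B (95% interval -1.82 to 0.65), -0.69 for DPF1 (-1.41 to 0.03), 0.06 for SS18L1 (-0.29 to 0.42) and 0.25 for SMARCA2 (-0.16 to 0.66). Each of these intervals lies below the fitted WT change, which was 2.87 for ACTL6B, 0.83 for DPF1, 1.16 for SS18L1 and 1.89 for SMARCA2. The error of the WT changes is left out of this comparison. Without dKO-D28 replicate 1, PHF10 (log2 -0.35, edgeR adjusted p = 0.029) and ACTL6B (log2 -1.79, edgeR adjusted p = 0.035) were called lower.

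The change on differentiation itself differed between the genotypes for 5 of the 9 genes, at a background of 30.1%. The difference, dKO minus WT, was log2 -3.45 for ACTL6B (SE 0.75, edgeR adjusted p = 0.00277), -1.65 for SMARCA2 (SE 0.29), -1.52 for DPF1 (SE 0.44), -1.10 for SS18L1 (SE 0.24) and 0.78 for SS18 (SE 0.17). The call for DPF1 was lost without WT NPC replicate 2 (log2 -1.01, edgeR adjusted p = 0.13) or dKO NPC replicate 2 (log2 -1.13, edgeR adjusted p = 0.17), and the call for ACTL6B without dKO NPC replicate 1 (log2 -3.04, edgeR adjusted p = 0.064). ACTL6A gave 0.52 (SE 0.20, edgeR adjusted p = 0.058).

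**Figure D3:**
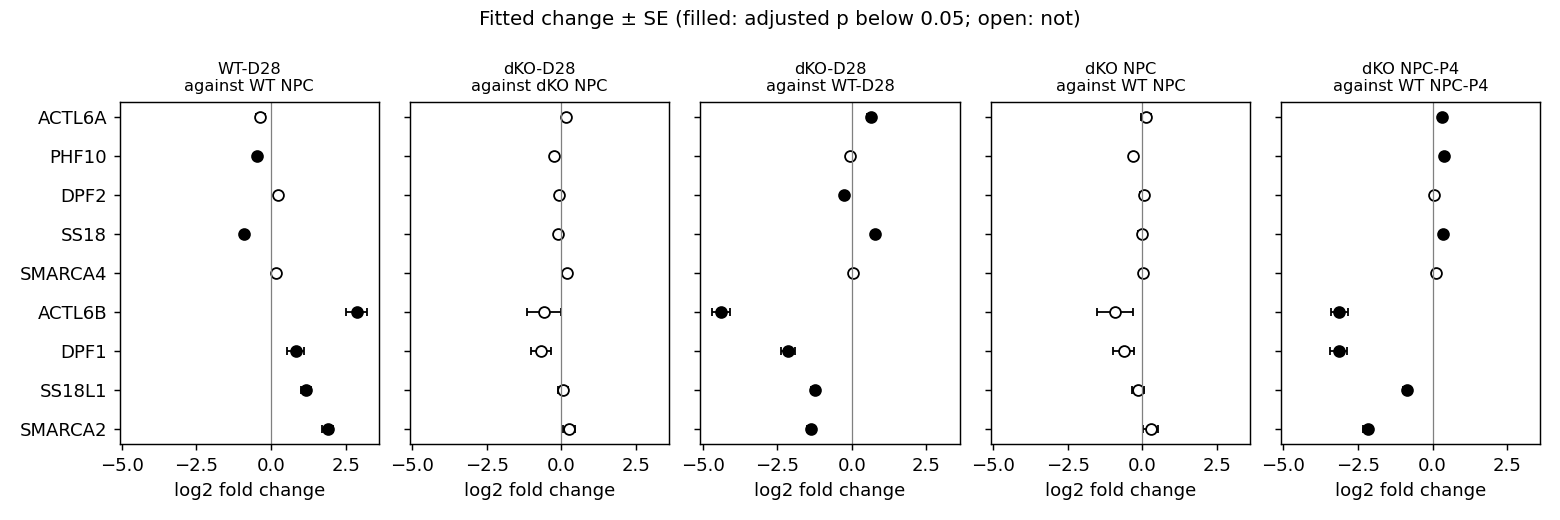
Fitted log2 fold change (horizontal axes) with its standard error for the 9 tested genes in 5 comparisons, filled where the edgeR adjusted p was below 0.05. The 3 tested neuronal subunits and SMARCA2 lie right of 0 in WT differentiation and left of 0 in dKO-D28 against WT-D28, where ACTL6B is at -4.38. Both comparisons use the same WT-D28 samples, with opposite sign, and are not independent. DPF3, not tested in this fit, is not shown. No point is filled for dKO differentiation or for dKO NPC against WT NPC.

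At day 28, 7 of the 9 genes differed between dKO and WT cells, at a background of 54.2%. Lower in dKO-D28 cells were ACTL6B, DPF1 (4.41-fold, log2 -2.14, SE 0.24, edgeR adjusted p = 1.73e-06), SMARCA2 (2.57-fold, log2 -1.36, SE 0.14), SS18L1 (2.36-fold, log2 -1.24, SE 0.14) and DPF2 (1.19-fold, log2 -0.255, SE 0.10). SS18 (log2 0.77, SE 0.11) and ACTL6A were higher, and PHF10 did not pass (log2 -0.06, 95% interval -0.29 to 0.16). DPF2, with an edgeR adjusted p of 0.047, passed in 6 of 19 alternative fits.

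Among the undifferentiated NPCs, none of the 9 genes differed between genotypes by edgeR, at a background of 2.77%. This background, 373 of all genes, moved to 20 without dKO NPC replicate 2, 70 without WT NPC replicate 1, and 968 and 967 without dKO-D28 replicate 1 or 2. PHF10 had an unadjusted p under 0.05 (log2 -0.29, edgeR adjusted p = 0.24), and DESeq2 called 0. The intervals were wide for the genes with few counts. ACTL6B, at 5 to 12 counts in these 4 samples, gave log2 -0.92 with a 95% interval of -2.21 to 0.36, and DPF1 -0.62 with -1.40 to 0.15. For SMARCA4 (-0.20 to 0.24) and SS18 (-0.28 to 0.26) the intervals were narrow.

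At passage 4, 7 of the 9 genes differed between dKO and WT NPCs, at a background of 49.6%. DPF1 was 8.82-fold lower (log2 -3.14, SE 0.29), ACTL6B 8.73-fold lower (log2 -3.13, SE 0.28), SMARCA2 4.50-fold lower (log2 -2.17, SE 0.15, edgeR adjusted p = 9.49e-09) and SS18L1 1.82-fold lower (log2 -0.86, SE 0.15). PHF10 (log2 0.40, SE 0.11), SS18 (log2 0.36, SE 0.11) and ACTL6A (log2 0.33, SE 0.125, edgeR adjusted p = 0.041) were higher. The call for ACTL6A held in 10 of 19 alternative fits and that for SS18 in 15 of 19. In these groups SLC1A3 was at 16.4 and 19.9 CPM in dKO against 1781 and 1946 CPM in WT samples, and the astrocyte marker GFAP at 6.32 and 9.81 against 21.7 and 23.6 CPM.

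From WT NPCs to WT NPC-P4, 6 of the 9 genes passed, at a background of 38.1%. ACTL6B rose 5.81-fold (log2 2.54, SE 0.37), SMARCA2 5.44-fold (log2 2.44, SE 0.20), DPF1 1.77-fold (log2 0.82, SE 0.29) and SS18L1 1.52-fold (log2 0.61, SE 0.17), while PHF10 fell by 0.91 (SE 0.12) and SS18 by 0.57 (SE 0.12) on the log2 scale. Without WT NPC replicate 2, DPF1 was not called (log2 0.32, edgeR adjusted p = 0.54). Its call held in 13 of 19 alternative fits and was also lost without either WT NPC-P4 sample, without either WT-D28 sample and in DESeq2. Without WT NPC replicate 1 or WT NPC-P4 replicate 2, SS18L1 was not called (log2 0.53 and 0.50). From dKO NPCs to dKO NPC-P4, 1 of 9 genes passed, at a background of 19.6%: DPF1 fell by 1.69 on the log2 scale (SE 0.38, edgeR adjusted p = 0.0054), a call lost without dKO NPC replicate 2 (log2 -1.31, edgeR adjusted p = 0.13). The genotypes differed in the change with passage for 5 of 9 genes, at a background of 23.1%, and 3 of these, PHF10, DPF1 and SMARCA2, were called in all 19 alternative fits. These comparisons share samples, the WT NPCs with WT differentiation and the dKO NPCs with dKO differentiation, and are not independent of one another.

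Groups were also ordered by level for each gene. With 2 samples a group, an overlap depends on the spread between them, which was largest in dKO-D28 cells. How often groups overlap over all genes was not counted. For ACTL6B, WT-D28 lay above WT NPC-P4 and that above WT NPC without overlap, while dKO NPC-P4, dKO NPC and dKO-D28 overlapped in sequence. For SMARCA2, WT NPC-P4 lay above WT-D28 and both above all others, and for DPF1 these groups overlapped. For PHF10, WT NPC was highest and WT NPC-P4 lowest, each apart from its neighbour. Across the 12 samples, the genes whose log2(CPM + 1) was most like ACTL6B were INA (Pearson r = 0.991), DIRAS2, NFASC, EEF1A2 and SV2A (r = 0.986). Those most like ACTL6A were SLC38A9 (r = 0.965), OSBPL9, MYO5C, FRAS1 and BMF (r = 0.941). These r describe 6 groups of 2 samples, with ACTL6B high in 4 of the 12.

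Of the other BAF subunits, 20 of 21 were tested, and SMARCB1 was listed at 0 counts in all 12 samples; what gives this 0, the annotation or the counting included, was not tested. Between WT NPCs and WT-D28 cells 5 rose and 6 fell, where 46.2% of all genes passed, with a median log2 fold change of -0.10. BCL11A, a zinc-finger subunit, rose from 10.4 to 37.5 CPM on average (log2 1.84, SE 0.24), SMARCD3 (BAF60C) from 75.8 to 170.5 CPM (log2 1.16, SE 0.13) and BCL11B from 3.82 to 9.39 CPM (2.46-fold), from 3 and 5 counts in the WT NPC samples. The BCL11B call was lost without either WT NPC sample. SMARCD2 fell from 34.8 to 16.6 CPM (log2 -1.13, SE 0.29; log2 -0.57 and not called without WT NPC replicate 2) and the core subunit SMARCC1 (BAF155), which is known to decline as neurons form, from 502 to 239 CPM (log2 -1.07, SE 0.13).

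**Figure D4:**
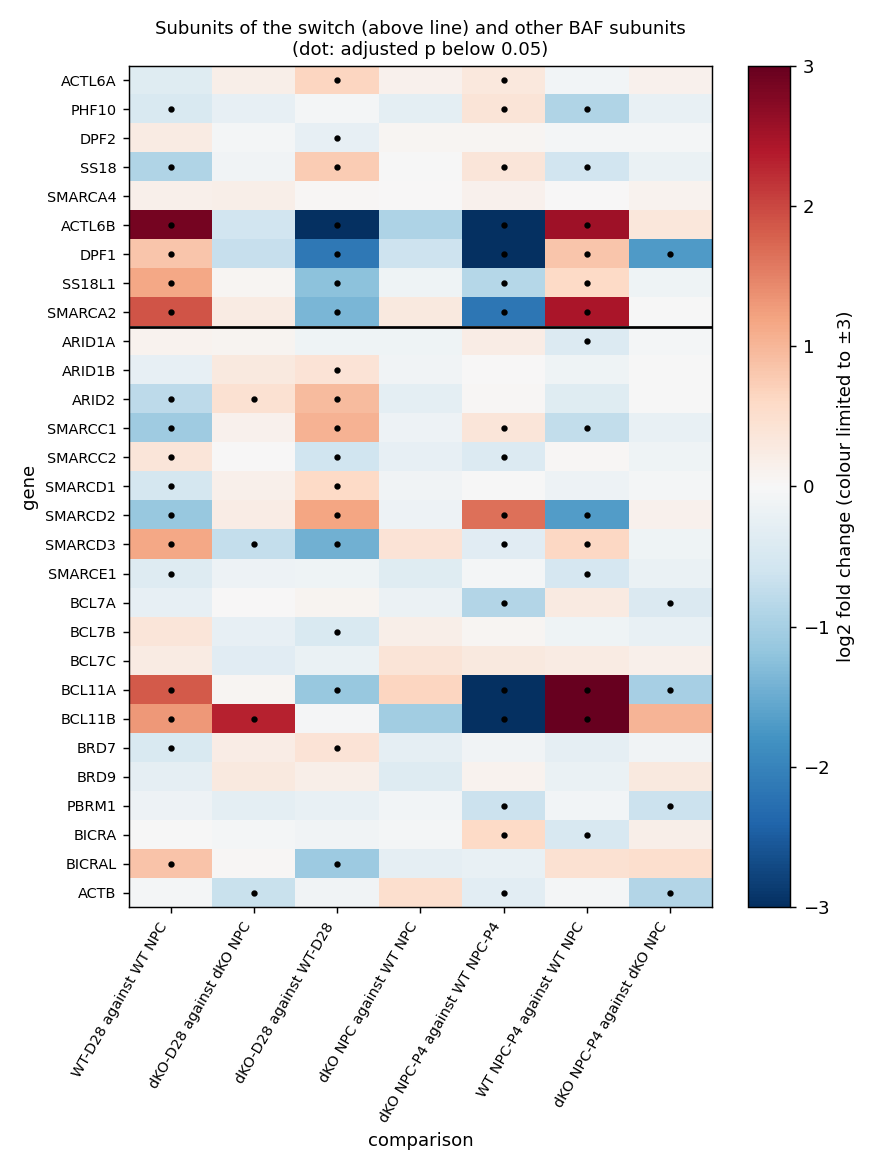
Log2 fold change (colour, limited to ±3) of the 9 tested genes (above the line) and 20 other BAF subunits (below) in 7 comparisons, with a dot where the edgeR adjusted p was below 0.05. The column of dKO NPC against WT NPC holds no dot, and SMARCC1 and SMARCD2 have opposite colours in WT differentiation and in dKO-D28 against WT-D28.

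In dKO-D28 against WT-D28 cells 6 other subunits were higher and 5 lower, at a background of 54.2%, among them SMARCC1 (log2 1.03, SE 0.12), SMARCD2 (log2 1.19, SE 0.23) and SMARCD3 (log2 -1.45, SE 0.11). In dKO differentiation 2 rose and 2 fell, at a background of 9.55%. BCL11B rose there (edgeR adjusted p = 0.00434) from 1.5 and 2.1 CPM, 2 and 3 counts at or under the floor, to 10.9 and 7.72 CPM, beside 9.12 and 9.66 CPM in WT-D28 cells. No fold is given for it, and the call was lost without either dKO NPC sample. At passage 4, 3 were higher and 7 lower in dKO, at a background of 49.6%, led by BCL11B (3.70 against 102 CPM, log2 -4.78, SE 0.23) and BCL11A (8.16 against 106 CPM, log2 -3.69, SE 0.17). None of the 20 differed between dKO and WT NPCs by edgeR, with 5 at an unadjusted p under 0.05 and 1 called by DESeq2.

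REST, a repressor of neuronal genes in cells other than neurons, was at 83.6 and 97.7 CPM in WT NPCs, 17.8 and 17.8 in WT-D28 cells, 34.1 and 54.7 in WT NPC-P4, 84.1 and 92.6 in dKO NPCs, 103 and 123 in dKO-D28 cells and 94.9 and 107 in dKO NPC-P4. The 4 WT-D28 and WT NPC-P4 samples, where ACTL6B was high, were the lowest for REST. Whether REST acts on ACTL6B was not tested. REST fell by 2.36 on the log2 scale in WT-D28 cells (SE 0.20, edgeR adjusted p = 1.73e-07). Its log2 difference in dKO differentiation was 0.36 (SE 0.18) and did not pass. Among REST and 8 corepressor genes, 1 rose and 3 fell in WT differentiation, close to the background of 46.2%, and 5 were higher and 2 lower in dKO-D28 than in WT-D28 cells, at a background of 54.2%.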

How the data were processed

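TRIzol RNA was made into TruSeq libraries, a kit that does not mark strand. Reads were mapped to hg38 by the authors with HISAT2 2.0.4, sorted with SAMtools 1.3.1 and counted per Ensembl gene with HTSeq 0.6.0. The deposited values are raw counts for 58302 genes in 12 samples. The annotation release and the strand setting of the counting are not given in the sources used here, so reads of genes that overlap on opposite strands may not be told apart. GENCODE v44 held 57532 (98.7%) of the identifiers.

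After TMM normalization, 13454 genes averaging 20 counts or more were fitted with edgeR 4.0.16 (R 4.3.3, robust quasi-likelihood) as 6 group means. A gene passed at a Benjamini-Hochberg adjusted p below 0.05 over all of them. The standard error is the log2 fold change divided by the square root of F, and 95% intervals use the fit's t distribution. With 2 samples a group an exact two-sided permutation test cannot go below p = 0.333. Shares are per base of the union of exons. Groups came from the labels.

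The 10 genes and all lists were chosen with earlier results of these data known. Also named were KDM6A, KDM6B, up to 4 passing genes of a list with the largest changes, and the 5 genes most correlated with ACTL6B or ACTL6A; SMARCC1, and REST where it did not pass, were named after their values were seen. The fit was checked on simulated counts. Alternatives were DESeq2 1.42.0, the rule in the study's methods, fits of only the groups compared, 2 other count filters, a GC and length correction, the replicate number as a block and leaving out each sample. Canonical transcript length, the DPF3 fit and leaving out samples for the genes of the other lists were added after seeing the data.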

Additional observations from a re-analysis of the deposited data

Results flagged for a closer look

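At a background of 30.1% of all genes, the change with differentiation differed between dKO and WT cells for 5 of the 9 tested genes. The test was of the difference itself in the same edgeR fit. On the log2 scale, dKO minus WT, the difference was 0.78 for SS18 (adjusted p = 0.00213), -3.45 for ACTL6B (adjusted p = 0.00277), -1.52 for DPF1 (adjusted p = 0.0165), -1.10 for SS18L1 (adjusted p = 0.00217) and -1.65 for SMARCA2 (adjusted p = 3.95e-04). The calls for DPF1 and ACTL6B did not hold in every alternative fit.

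In the same fit, the difference between genotypes changed with passage for 5 of the 9 tested genes, at a background of 23.1%. It was 0.69 for PHF10 (adjusted p = 0.00572), -2.20 for ACTL6B (adjusted p = 0.0362), -2.52 for DPF1 (adjusted p = 0.00127), -0.72 for SS18L1 (adjusted p = 0.0401) and -2.45 for SMARCA2 (adjusted p = 1.78e-05). ACTL6B passed in 10 of 18 alternative fits and SS18L1 in 8 of 19.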

How the results depend on the processing

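No called direction reversed under the alternatives run. Under the rule of unadjusted p below 0.05 and fold above 2, the genes passing were 3 for WT-D28 against WT NPC (6 by adjusted p), 4 for dKO-D28 against WT-D28 (7), 3 for dKO NPC-P4 against WT NPC-P4 (7), 2 for WT NPC-P4 against WT NPC (6) and 3 for genotype by passage (5), since this rule drops changes under 2-fold. Leaving out each sample in turn gave 0 to 2 for dKO-D28 against dKO NPC, 0 to 1 for dKO NPC-P4 against dKO NPC and 3 to 5 for genotype by passage. With at least 10 counts in every sample, ACTL6B was not tested. Whether the replicate numbers pair the samples is not stated. Over 15 pairs of groups the correlation of same-numbered deviations averaged 0.018, from -0.058 to 0.194. The highest value was that of WT NPC-P4 with dKO NPC-P4. Counting error lowers such correlations, so low values cannot exclude pairing. With the replicate block, DPF2 in dKO-D28 against WT-D28 (adjusted p = 0.054) and ACTL6A in dKO NPC-P4 against WT NPC-P4 (adjusted p = 0.051) no longer passed in edgeR, and 78 of 81 single results kept direction and call. With the correction for GC content and length, SMARCA4 was called higher in dKO NPC-P4 (log2 0.34) and DPF1 was not called in WT-D28 against WT NPC (log2 0.63); SMARCA2 in WT NPC-P4 against WT NPC had its lowest value, 1.85. Over all genes, counts by the fold rule were 3281 (6212 by adjusted p), 3250 (7287), 3001 (6672), 2663 (5128), 1322 (2635) and 595 (373) for WT-D28 against WT NPC, dKO-D28 against WT-D28, dKO NPC-P4 against WT NPC-P4, WT NPC-P4 against WT NPC, dKO NPC-P4 against dKO NPC and dKO NPC against WT NPC. In the other fits the counts are by adjusted p, with that of the main edgeR fit in brackets. With only the groups compared they were 490 (1285) for dKO differentiation and 837 (373) for dKO NPC against WT NPC. For dKO NPC-P4 against dKO NPC such a fit gave 4097 (2635). With at least 1 count in any sample they were 2309 (1285) for dKO differentiation and 704 (373) for dKO NPC against WT NPC. Without single samples, dKO NPC against WT NPC ranged from 20 to 968. The cause was not tested. The low totals of the WT and dKO NPC samples limit what can be seen for ACTL6B, DPF1 and DPF3.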

Other observations

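Of 9 other chromatin remodelling ATPases, 2 rose and 4 fell from WT NPCs to WT-D28 cells, where 46.2% of all genes passed. CHD5, a remodeller known from neurons, was at 2.61 and 1.49 CPM in WT NPCs, 2 counts each and under the floor of 3, 113 and 113 CPM in WT-D28 cells, 34.7 and 32.9 CPM in WT NPC-P4 and 0.386 to 5.15 CPM in the 6 dKO samples. Its level was lower in dKO-D28 than in WT-D28 cells (log2 -6.30, SE 0.33, edgeR adjusted p = 1.11e-09), a value that rests on 11 and 2 counts in the dKO-D28 samples and was log2 -8.09 without replicate 1 and -5.39 without replicate 2 of that group. CHD3 rose from 213 to 528 CPM on average in WT differentiation (log2 1.31, SE 0.11), and CHD7 fell from 433 to 190 CPM (log2 -1.19, SE 0.10). In dKO differentiation 1 of the 9 passed, at a background of 9.55%: CHD7 rose from 380 to 519 CPM (log2 0.45, SE 0.10, edgeR adjusted p = 0.00869), a call lost without either dKO NPC sample.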
